A study of Mus musculus with 6 samples.

Results

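Carbonic anhydrases are zinc enzymes that convert carbon dioxide and water into bicarbonate and a proton, and back. The mammalian forms differ mainly in where they act: in the cytosol, in mitochondria, at the outer face of the cell membrane or outside the cell, and a few related proteins have lost the zinc site and the activity. In fat tissue the cytosolic form Car3 is known as one of the most abundant proteins of mature adipocytes, and the mitochondrial form supplies bicarbonate to pyruvate carboxylase.

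The 10 carbonic anhydrase genes described here, Car2, Car3, Car4, Car5b, Car6, Car8, Car9, Car12, Car13 and Car14, were taken by gene symbol and are represented by 21 of the 45037 probe sets compared, and by 10 of the 18193 genes with a symbol of their own. The family was chosen on a measured value, because the difference of Car3 between the groups is among the largest falls on the array. The members' values and differences are therefore given as a description, and no p-value is given for any of them.

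The data are 6 Affymetrix GeneChip arrays of mouse RNA, 3 for each cell population. Mature adipocytes (AC) were taken directly from fat tissue. Dedifferentiated fat (DFAT) cells are a proliferating line that grew out of such adipocytes in ceiling culture, where floating fat cells attach to the upper face of a flask and lose their lipid, and were grown to semiconfluence. The line is from GFP transgenic mice, whereas for AC no genotype is named, and strain, age and the number of animals or cultures behind each group are not named for either. The p-values thus measure only the spread between these arrays, which may be technical, and the spread of the DFAT arrays need not extend to other lines. Values are log2 RMA signals, in which a difference of 1 is a doubling. The background level of an array is here the 95th percentile of 127 probe sets for genes of sperm, retina, lens and sense organs, and ran from 5.60 to 5.76. A gene is said to be at background when no array of the group exceeded that level.

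The adipocyte label was checked on marker genes. All 17 measured white adipocyte markers were above background level in AC, and all fell in DFAT cells (median log2 difference -6.34). Markers of other cell types were also above background level in AC, and AC replicate 1 stood apart in them. The 18 endothelial markers had a mean log2 value of 9.88 on the array of AC replicate 1, where AC replicates 2 and 3 had 8.14 and 8.02, and the 18 macrophage markers had 6.34 there against 7.99 and 8.06. The 14 epithelial and mammary markers had 8.93 there against 8.28 and 8.23. On the DFAT arrays these lists lay between 4.16 and 4.51. All 18 endothelial, 16 of 18 macrophage and 12 of 14 epithelial markers fell. In AC 12 of 15 skeletal muscle markers and 6 of 7 measured erythroid markers were at background. In bulk RNA, fewer cells of a type and less RNA per cell cannot be told apart.

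By the probe set with the highest mean of each gene, 5 of the 10 carbonic anhydrases were lower in DFAT cells past the limma threshold, an adjusted p of 0.05, namely Car2, Car3, Car4, Car5b and Car12, where 23.8% of all genes were. Car8 and Car14 were higher, where 22.6% of all genes were. Car6, Car9 and Car13 did not pass the threshold. The groups did not overlap for 7 members, against 60.0% of all genes. Of the members 4 were at least 4-fold lower and 1 was at least 4-fold higher, against 6.66% and 4.78% of all genes. Since Car3 of the same comparison chose the family, nothing is read from these counts. The median difference was -0.99 for the members and -0.10 for all genes. Of the 21 probe sets 13 passed the threshold, against 38.4% of all probe sets.

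**Figure D1:**
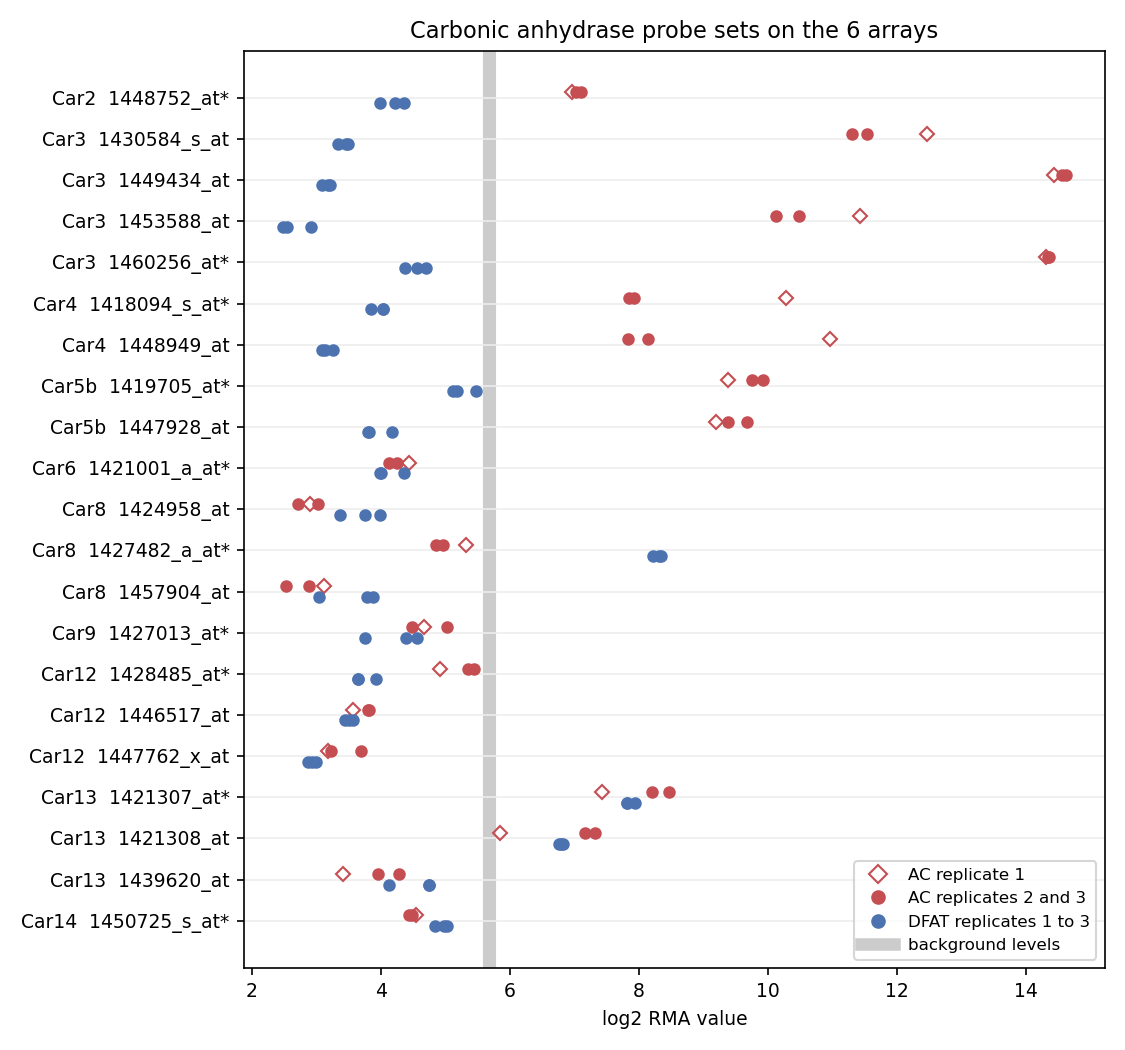
Log2 RMA values of the 21 carbonic anhydrase probe sets. Points are arrays, in red for AC and blue for DFAT cells, open diamonds are AC replicate 1, asterisks mark the probe set with the highest mean of each gene and the grey band marks the range of the background level. Only probe sets of Car2, Car3, Car4, Car5b and Car13 lie to the right of the band on all 3 AC arrays, and only those of Car8 and Car13 do so on all 3 DFAT arrays.

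Car3, a cytosolic form with low activity that is also abundant in skeletal muscle, gave the strongest difference of the family. The probe set with the highest mean had log2 values of 14.32, 14.35 and 14.33 on the AC arrays and of 4.56, 4.70 and 4.37 on the DFAT arrays. The AC arrays thus lay within 0.03 of each other and every DFAT array was under background level. The mean was 14.33 ± 0.02 (SD, n = 3) for AC and 4.55 ± 0.16 (SD, n = 3) for DFAT, a difference of -9.79 with a 95% confidence interval of -10.10 to -9.47. Counted only down to the background level of the DFAT arrays, Car3 was at least 398-fold lower on this probe set. In AC its signal lay close to those of Adipoq at 14.40 and Fabp4 at 14.46. Whether the arrays still separate amounts of RNA at such high signals was not tested, so the small spread in AC is read with that limit. The skeletal muscle markers Ckm, Myh1, Myh2, Myh4 and Mb did not exceed the background level in AC, although Acta1 and Myl1 did on all 3 AC arrays.

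By size, on the representative probe set of each gene, the difference of Car3 came after those of Adipoq, Cd36 and Cdo1 alone among all genes. This order is not exact, because all of these were at background level in DFAT cells. It also depends on which probe set stands for Car3. With values under the background level set to that level, the difference was -8.64 and only that of Adipoq was larger, at -8.70. Car3 has 3 further probe sets, and all were above background level on every AC array and under it on every DFAT array. On one of them the values were 14.44, 14.61 and 14.57 in AC against 3.19, 3.21 and 3.09 in DFAT cells. That is a difference of -11.38, beyond the -10.40 of Adipoq, and at least 459-fold down to the background level. The other 2, annotated with the same transcript accession as each other, differed by -8.33 and -8.03. Down to the background level these were at least 66.9-fold and 31.5-fold.

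The 4 probe sets did not order the AC arrays alike. On the pair with the shared accession the AC arrays had 12.46, 11.53 and 11.30, and 11.43, 10.48 and 10.12, so that AC replicate 1 was above the mean of the other AC arrays by 1.05 and 1.13. On the other pair it differed from that mean by -0.02 and -0.15. The reason for this disagreement was not tested.

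The genes with the pattern most like that of Car3, by the root mean square distance of log2 values over the 6 arrays after each gene was centred on its own mean, were Gnai1, Cdo1, Cd36, Amy1 and Cidec. Gnai1, an inhibitory G protein subunit, was at a distance of 0.18 and had log2 values of 12.64, 12.92 and 12.83 in AC against 3.50, 3.28 and 2.97 in DFAT cells. Cdo1, an enzyme of cysteine breakdown, was at 0.21, the fatty acid transporter Cd36 at 0.23, the amylase Amy1 at 0.31 and the lipid droplet protein Cidec at 0.32. All 5 were at background level on every DFAT array.

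Car2, a fast cytosolic form found in many tissues, had log2 values of 6.97, 7.02 and 7.09 in AC and of 4.22, 4.36 and 3.99 in DFAT cells. The groups did not overlap and every DFAT array was under background level. The difference was -2.84 (95% confidence interval -3.17 to -2.51), and -1.33 down to the background level, or at least 2.52-fold. Red blood cells also contain Car2. Of the 7 measured erythroid markers, 6 were at background level on all 6 arrays, among them the haemoglobin gene Hba-a1, and Alas2, the first enzyme of haem synthesis in red cell precursors, had 7.87, 6.57 and 6.82 in AC and was at background level in DFAT cells (difference -3.01, adjusted p = 0.000146 from limma). The part of such cells in the Car2 signal was not tested.

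Car13, another cytosolic form, was the member that stayed above background level on all 6 arrays. Its probe set with the highest mean had 7.43, 8.21 and 8.47 in AC against 7.82, 7.82 and 7.94 in DFAT cells. The DFAT arrays lay within the range of the AC arrays, with AC replicate 1 lowest of all. The difference was -0.18 (95% confidence interval -0.77 to 0.41), and 0.28 with the hybridization controls as the centre of each array. Without AC replicate 1 it was -0.48, past the threshold. A further probe set had 5.84, 7.32 and 7.16 in AC against 6.82, 6.77 and 6.79 in DFAT cells, a difference of 0.02 with an interval of -0.80 to 0.84, and again AC replicate 1 was the lowest array. The macrophage markers were lower on that array too, in 17 of 18 cases, and their part in the Car13 values was not tested. The last probe set of Car13 was at background level in both groups.

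Car5b, which acts in the mitochondrial matrix, was above background level on every AC array and at background level in DFAT cells by both of its probe sets. On the representative probe set the values were 9.38, 9.75 and 9.92 in AC against 5.11, 5.18 and 5.48 in DFAT cells. On the other they were 9.20, 9.67 and 9.39 in AC against 4.17, 3.80 and 3.82 in DFAT cells. AC replicate 1 was the lowest AC array on each, at -0.46 and -0.33 from the mean of the others. The differences were -4.43 (95% confidence interval -4.85 to -4) and -5.49 (-5.90 to -5.08). Down to the background level they amounted to at least 15.9-fold and 13.2-fold. Car5a, the other mitochondrial form and one known from liver, did not exceed the background level, at 3.54 ± 0.15 in AC and 3.36 ± 0.27 in DFAT cells (SD, n = 3 each).

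Car4 is anchored to the outer face of the membrane and is known from the capillary endothelium of several organs. On its representative probe set, the one with the highest mean, it had log2 values of 10.28, 7.92 and 7.85 in AC and of 4.03, 4.04 and 3.85 in DFAT cells. On the other it had 10.95, 8.15 and 7.84 in AC against 3.09, 3.26 and 3.14 in DFAT cells. AC replicate 1 was above the mean of the other AC arrays by 2.39 and 2.96, where the endothelial markers were higher by 1.8 in the mean and all 18 had their highest AC value. The differences between the groups were -4.71 and -5.82 with all arrays and -3.91 and -4.83 without AC replicate 1, and the groups did not overlap either way. Down to the background level, with all arrays, Car4 was at least 7.92-fold lower on the former probe set and 9.73-fold on the latter, and without AC replicate 1 these bounds were 4.56-fold and 4.91-fold. The part of other cells in the Car4 signal of AC was not tested.

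**Figure D2:**
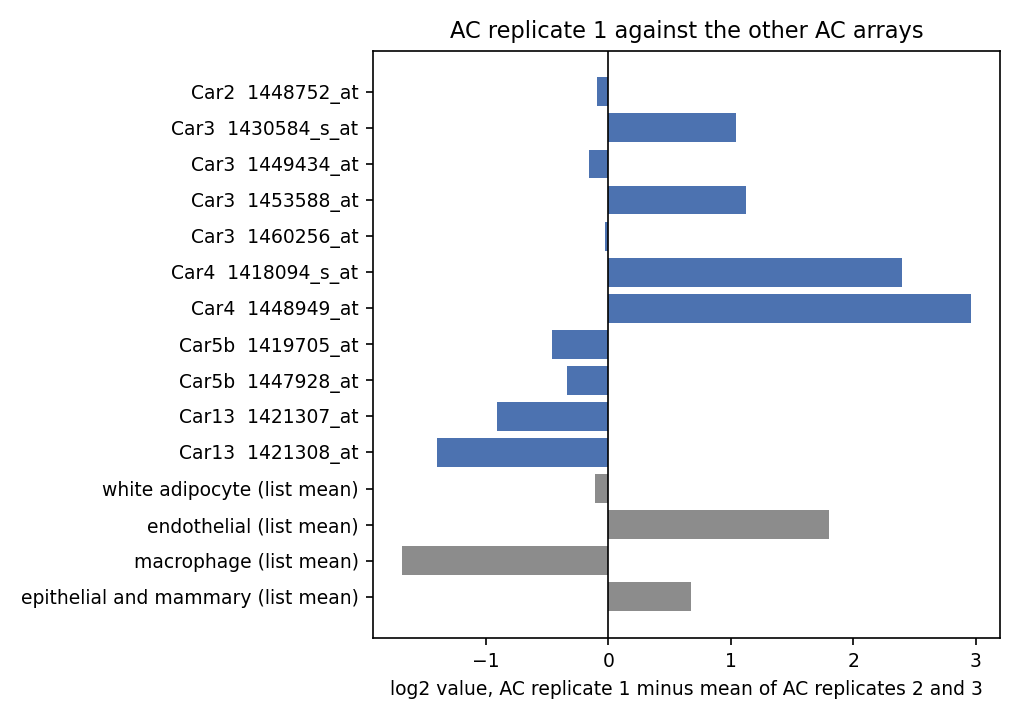
Log2 value on the array of AC replicate 1 minus the mean of AC replicates 2 and 3, for each carbonic anhydrase probe set above background level on all 3 AC arrays (blue) and for the mean of 4 marker lists (grey). Car4 stands at 2.39 and 2.96 and the endothelial markers at 1.8, while Car13 at -0.91 and -1.40 and the macrophage markers at -1.69 lie on the other side.

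The bases just before the transcription start of Car4 and Car5b are shown because these are the members, among those clearly above background level in AC and lower in DFAT cells, for which RefSeq promoters of GRCm38.p6 were at hand. Each run is the 120 bases up to the start, 5′ to 3′ on the gene's strand, with matches to any of 5 motifs in capitals. Car4 lies on the plus strand at chr11:84957634-84957753 and Car5b on the minus strand at chrX:164028011-164028130.
Car4: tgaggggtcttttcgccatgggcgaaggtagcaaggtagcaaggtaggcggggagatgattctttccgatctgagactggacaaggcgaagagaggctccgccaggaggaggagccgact
Car5b: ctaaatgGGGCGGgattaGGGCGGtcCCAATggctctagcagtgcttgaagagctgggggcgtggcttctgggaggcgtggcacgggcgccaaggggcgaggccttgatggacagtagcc
The motifs were searched on both strands in 250 bases before the start. They were the TATA box TATAAA, the CCAAT box CCAAT, the GC box GGGCGG, the nuclear receptor half-site AGGTCA and ACGTG, the only form of the core of hypoxia response elements that was searched. Of 32851 promoters, 12.4%, 33.8%, 32.7%, 14.0% and 16.6% held them. The Car5b promoter held 2 GC boxes, starting 113 and 102 bases before the start, and a CCAAT box 94 bases before it. The Car4 promoter held none of the 5. None of the 6 members with a promoter held TATAAA or AGGTCA in this window.

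Car9 and Car12 are membrane-spanning forms with the active site outside the cell, and both are known to be induced by hypoxia. Car9 was at background level on every array, with 4.66, 4.49 and 5.03 in AC against 3.75, 4.38 and 4.56 in DFAT cells, and the groups overlapped. The difference was -0.49 (95% confidence interval -1.05 to 0.06), and -0.83, past the threshold, with a set of reference genes as the centre of each array. Car12 had 4.92, 5.44 and 5.35 in AC against 3.92, 3.65 and 3.65 in DFAT cells by its representative probe set. It passed the threshold as lower, at a difference of -1.50, but no array exceeded the background level, and with values set to that level the difference was 0.03. The further 2 probe sets of Car12 were also at background level in both groups, with differences of -0.22 and -0.43 that did not pass the threshold.

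The promoters of Car9 and Car12 are shown for the hypoxia response core, on the plus strand at chr4:43506906-43507025 and chr9:66713566-66713685, with matches to the 5 motifs in capitals.
Car9: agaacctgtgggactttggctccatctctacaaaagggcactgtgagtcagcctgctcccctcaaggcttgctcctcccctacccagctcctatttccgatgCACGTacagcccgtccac
Car12: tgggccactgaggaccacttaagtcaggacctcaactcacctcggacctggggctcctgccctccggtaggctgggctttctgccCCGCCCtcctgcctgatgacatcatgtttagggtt
The Car9 promoter held the core in the form ACGTG on the other strand, starting 18 bases before the start. The Car12 promoter held a GC box 35 bases before the start and no match to ACGTG in 250 bases. Car6 and Car14 held ACGTG too, so that 3 of the 6 members with a promoter did. Other forms of the core were not counted. A match is a description of the letters and not of binding.

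Car14, a further membrane-spanning form, and Car6, the secreted form of saliva and milk, were at background level on all arrays. Car14 had 4.54, 4.43 and 4.48 in AC against 4.98, 4.84 and 5.02 in DFAT cells. The groups did not overlap and the difference of 0.46 passed the threshold, but both lay under background level, and with the reference genes as the centre the difference was 0.13. Car6 had 4.44, 4.12 and 4.25 in AC against 3.98, 4 and 4.36 in DFAT cells, which overlapped, with a difference of -0.15 (95% confidence interval -0.53 to 0.22), or 0.31 with the hybridization controls as the centre and -0.48, past the threshold, with the reference genes. Of the 14 epithelial and mammary markers, 13 were above the background level in AC, where Car6 was not.

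Car8 lacks part of the zinc site and is not an active anhydrase. It is known as a binding partner of the inositol trisphosphate receptor in Purkinje cells. It was the one member clearly higher in DFAT cells. By its representative probe set it had 5.32, 4.85 and 4.97 in AC, under the background level on every array, and 8.34, 8.22 and 8.31 in DFAT cells, above it on every array. The difference was 3.24 (95% confidence interval 2.88 to 3.60), and 2.62 from the background level up, or at least 6.15-fold. Centred on the reference genes it was 2.91, and on the hybridization controls 3.71. The 2 other probe sets of Car8 were at background throughout, with differences of 0.82 and 0.73, so that a single probe set carried the signal above it.

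**Figure D3:**
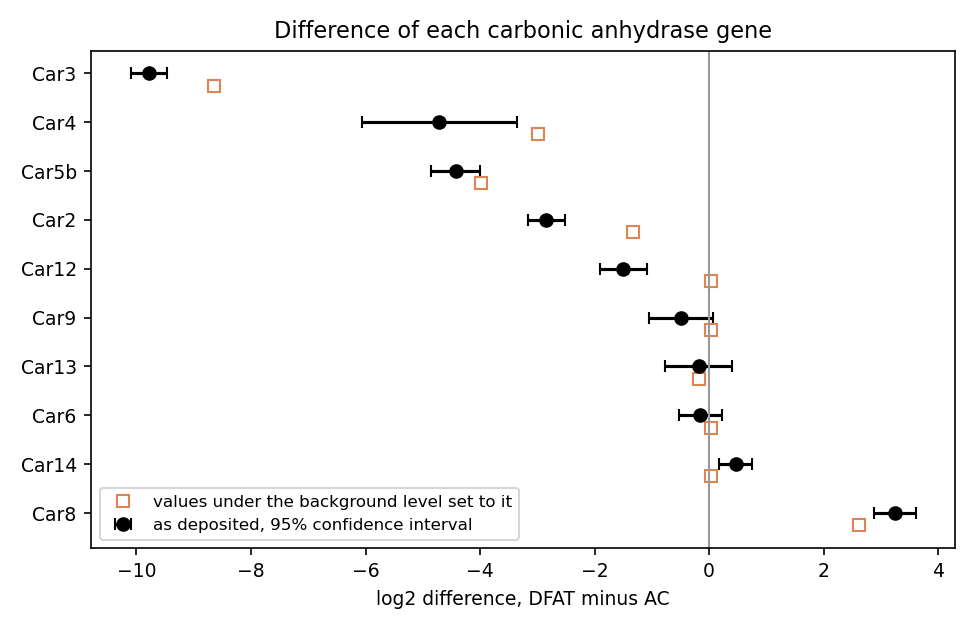
Log2 difference of each carbonic anhydrase gene, DFAT cells minus AC, on its representative probe set. Black points show values as deposited with 95% confidence intervals, and open squares show the difference with values under the background level set to that level. Car3, Car5b, Car4 and Car2 keep differences of -8.64 to -1.33 and Car8 keeps 2.62, and Car6, Car9, Car12 and Car14 fall together at 0.03, the difference between the background levels of the arrays.

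The remaining genes of the family on the array, Car1, Car5a, Car7, Car10, Car11 and Car15, were at background level in DFAT cells. In AC, Car1, Car5a and Car10 were as well, on all 3 arrays. Car11, a form without activity, fell from 5.84 ± 0.09 in AC, just above the background level, to 4.89 ± 0.09 (SD, n = 3 each), with an adjusted p of 0.000611 by limma. With the hybridization controls as the centre it fell by 0.49, and with values set to the background level by 0.14, both short of the threshold. Car7, a cytosolic form known from neurons, had 8.82, 6.28 and 6.55 in AC against 4.98, 4.60 and 5.07 in DFAT cells by its representative probe set, and like Car4 was highest on AC replicate 1. The difference was -2.33 (adjusted p = 0.0161 from limma), a call lost without DFAT replicate 1 (-2.38, adjusted p = 0.0527) or DFAT replicate 2 (-2.19, adjusted p = 0.0582) and by the methods' test (adjusted p = 0.113). Without AC replicate 1 it was -1.53, still past the threshold. Of the 2 other probe sets of Car7, 1 fell by 0.78 and exceeded the background level on 1 AC array alone. The other fell by 0.72 with both groups at background level. Car1 fell by 1.14 on the log2 scale (adjusted p = 0.00229 from limma) with both groups under background level. Car15 and Car10 had differences of -0.22 and -0.18 and Car5a -0.18, and none passed the threshold. In all, 3 of the 6 fell, where 23.8% of all genes did, and none rose, where 22.6% did.

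Car13, Car1, Car3 and Car2 follow each other in this order on chromosome 3 in the RefSeq gene order, with no other protein-coding gene between them. Their differences were -0.18, -1.14, -9.79 and -2.84. Of these 4 neighbours Car13 alone was above background level in DFAT cells, and Car1, Car3 and Car2 were at it.

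Genes that use or move bicarbonate were compared from lists picked by known function. These lists, and that of the targets of hypoxia-inducible factors below, were chosen with earlier results of these data known. Their counts and p-values are therefore given as a description. Of 10 enzymes that use bicarbonate, 7 fell, 1 rose and 2 did not pass the threshold, with a median difference of -2.86, where 23.8% of all genes fell and 22.6% rose. Pyruvate carboxylase Pcx, which makes oxaloacetate in mitochondria, fell from 12.23 ± 0.15 (SD, n = 3) to 8.06 ± 0.11 (SD, n = 3), a difference of -4.16 (adjusted p = 3.5e-07 from limma). Mccc1, a subunit of the carboxylase of leucine breakdown, fell by 4.01 and Acaca, the acetyl-CoA carboxylase of fatty acid synthesis, by 3.60 on the log2 scale. Of the 7 enzymes that fell, 6 stayed above background level in DFAT cells. Acacb, a further acetyl-CoA carboxylase, fell by 3.51 to background level, a call that its other probe set did not share. Cad, which uses bicarbonate for pyrimidine synthesis, rose from 6.91 ± 0.30 (SD, n = 3) to 9.27 ± 0.06 (SD, n = 3), a difference of 2.37 (adjusted p = 2.07e-05 from limma). The urea cycle enzyme Cps1 and the bicarbonate-sensitive cyclase Adcy10 were at background level in both groups.

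Of 31 measured transporters of bicarbonate, protons, lactate and water, 5 fell, 3 rose and 23 did not pass the threshold, with a median difference of -0.18. The shares of 16.1% lower and 9.68% higher were below the 23.8% and 22.6% of all genes. Of the 31, 14 were at background level on all 6 arrays, so nothing is read from these shares. The water channel Aqp1, which also passes carbon dioxide, had 12.64, 11.26 and 11.10 in AC and fell by 5.47 to 6.20 ± 0.03 (SD, n = 3; adjusted p = 1.32e-05, limma), and stayed above background level. Its highest AC array was replicate 1, as for Car4 and the endothelial markers, and without that array it fell by 4.98. The monocarboxylate transporter Slc16a7 fell by 4.31 and the proton channel Hvcn1 fell by 2.04, both to background level. The anion exchanger Slc4a2 rose from 8.11 ± 0.03 to 8.92 ± 0.08 (SD, n = 3 each; adjusted p = 0.00116 from limma). Bsg, the chaperone of lactate transporters, rose by 0.54, a call lost without DFAT replicate 2 (0.51) or 3 (0.51) and with the reference genes as the centre (0.21). The sodium-proton exchanger Slc9a5 rose by 1.79, from background in AC to just above it on 2 of the 3 DFAT arrays, by 1 of its 2 probe sets. The sodium bicarbonate cotransporter Slc4a4 did not pass the threshold, at 5.94, 7.42 and 7.51 in AC against 6.70, 6.65 and 6.69 in DFAT cells.

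Beside Car9 and Car12, 16 other known targets of hypoxia-inducible factors went in both directions. In DFAT cells 7 rose, 4 fell and 5 did not pass the threshold, or 43.8% higher and 25% lower against 22.6% and 23.8% of all genes, with a median difference of 0.48. The 11 reference genes had a median difference of 0.47, and 6 of them rose and 1 fell. Centred on the reference genes 5 targets rose and 5 fell, and on the hybridization controls 10 rose and 2 fell. Nothing is therefore read from these shares. P4ha1 and P4ha2, subunits of collagen prolyl hydroxylase, rose by 3.83 and 2.45 and the glycolytic enzyme Pgk1 by 1.99 (adjusted p = 8.96e-06, 2.74e-05 and 4.24e-05 from limma). Bnip3, a protein of mitophagy, fell by 2.45, the peptide hormone Adm fell by 1.98 and Ndrg1 by 1.78 (adjusted p = 2.86e-06, 0.0434 and 4e-05 from limma). Adm had 9.71, 12.36 and 12.39 in AC, with AC replicate 1 lowest, and its call was lost when any array but that one was left out, at differences of -2 to -1.53, and with the array median or the hybridization controls as the centre, at -1.85 and -1.51. Without AC replicate 1, 10 of the targets rose and 4 fell. None of the 16 was at background level in DFAT cells, whereas Car9 and Car12 were.

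**Figure D4:**
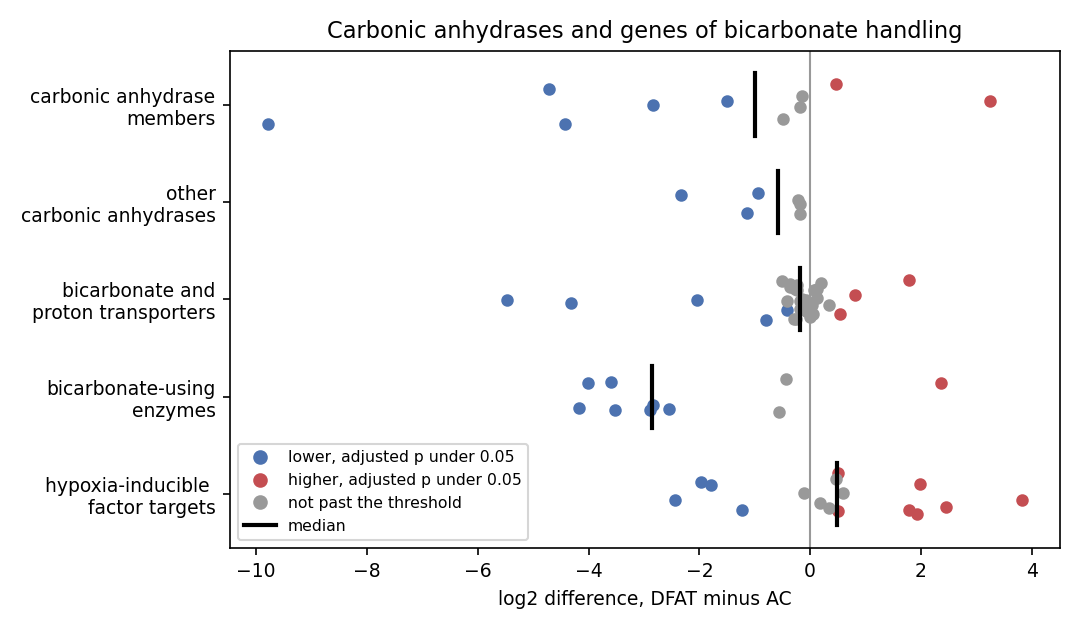
Log2 difference, DFAT cells minus AC, of each measured gene of the 5 lists, on its representative probe set. Points are genes, coloured by the direction of those with an adjusted p under 0.05, and black bars are list medians, at -0.99 for the carbonic anhydrase members, -2.86 for the bicarbonate-using enzymes and 0.48 for the targets of hypoxia-inducible factors. Vertical scatter within a list has no meaning.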

How the data were processed

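The authors hybridized RNA of AC and DFAT cells to Affymetrix arrays and deposited log2 values of each probe set after RMA, which corrects the background, brings arrays to one distribution and summarizes probes. RMA is named in the methods and the submitters' processing notes, with no version. The sources used here do not say whether further arrays were normalized with these.

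The 64 control probe sets were left out. The 21 probe sets of the members were named through the platform annotation, and all 21 had the same symbol by Entrez ID in RefSeq of GRCm38.p6. The comparison used limma 3.58.1 under R 4.3.3 without a filter, with moderated two-sided tests of DFAT minus AC, Benjamini-Hochberg adjustment across 45037 probe sets and a threshold of 0.05, and was tested on simulated data. The number of arrays limits the precision. For each gene the probe set of highest mean signal across the 6 arrays was representative. The background level is a level of signal and no detection call. The members and lists were chosen with earlier results of these data known. Named were all carbonic anhydrases, the 3 largest changes in each direction of each pathway list, and the 5 genes most like Car3. Others, such as Slc4a4, Cps1, Adcy10 and single muscle markers, were named after their values were seen. Alternatives covered the scaling, a floor, a filter, the variance model, array weights, Student's t-test and the 4-fold rule of the array methods. They also covered the replicate number as a block, the mean over probe sets, other percentiles and leaving out each array. Tables and figures were made in Python 3.11.15 (pandas 2.3.3, numpy 2.4.6, matplotlib 3.10.9).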

Additional observations from a re-analysis of the deposited data

How the results depend on the processing

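The calls of Car2, Car3, Car4, Car5b and Car8 kept their direction and their side of the threshold under all 18 alternatives. All alternatives used values of the same 6 arrays. Car3 was chosen on its difference there, so that its call was kept is no support for it. Over all probe sets the median difference was -0.06. Centring on the reference genes, of which 6 of 11 rose and 1 fell, moved it to -0.39, the hybridization controls moved it to 0.40 and the array median to 0.07. The split of all calls, 8133 lower and 9152 higher, became 19294 and 6423, 3405 and 12442, and 6338 and 10782. With the reference genes 7 members were lower in place of 5, as Car6 and Car9 passed the threshold. The number of members higher in DFAT cells was 1 in place of 2, as Car14 was lost, with the reference genes, with values set to the background level, without dim probe sets, by the 4-fold rule and with the replicate block, and 1 to 2 when each array was left out. It was 1 without AC replicate 2, DFAT replicate 1 or DFAT replicate 3. With that floor, the differences of Car12 and Car1 were 0.0309 each, by construction that between the levels of the arrays. Of the other carbonic anhydrases 6 fell with the reference genes, 1 with the hybridization controls, 0 with values set to the background level and 1 by the 4-fold rule. Of the transporters 16 fell with the reference genes, 3 with the hybridization controls, with values set to the background level, without dim probe sets and by the 4-fold rule, and 8 with array weights. The range was 4 to 8 when each array was left out, with 8 without AC replicate 1. By the 4-fold rule 0 transporters rose, and of the targets of hypoxia-inducible factors 1 fell and 2 rose. Of these targets 2 fell with the hybridization controls. At the 90th percentile 3 members were at background level in AC in place of 5. Arrays with the same replicate number did not deviate together (correlations of -0.03 to 0.01). Such correlations cannot exclude a pairing, since AC replicate 1 stood apart and the DFAT arrays differed little. The labels name no pairing. With the replicate block 5 members were lower and 1 was higher. Of 281 alternative values of single carbonic anhydrases 256 kept direction and side of the threshold, and of 287 of named pathway genes 267 did. The Car4 bounds without AC replicate 1 were added after seeing the data. Values at background level limit the folds to lower bounds.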
